A study of Mus musculus with 10 samples.

Results

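Expression of 9 genes of retinoid handling was followed in the lungs of young mice: Stra6, Lrat, Aldh1a1, Aldh1a2, Crabp1, Crabp2, Rara, Rarb and Rarg. They were taken as every probe set of the deposited table whose annotation gives a single symbol from that set, which found all 9 genes in 11 probe sets, among 18193 genes and 45101 probe sets in all. The lungs came from C57BL/6J mice aged 2 weeks, with 1 Affymetrix mouse array for each lung. The 4 control mice were housed in filtered air, apart from the exposed animals. From 1 day of age the 6 smoke mice were put in a cigarette smoke chamber together with their mother, in daily sessions of 1 hour during the first 7 days and of 2 hours during the next 7, at a mean particulate load of 90 mg per cubic metre. The labels leave sex unknown and name no litter, so p-values reflect only how these 10 arrays vary, which may in part be technical. The comparison asks how the retinoid genes stand in the lung after neonatal smoke exposure, in the weeks when alveoli form.

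Vitamin A reaches cells as retinol, is stored as retinyl ester, and is oxidised by way of retinaldehyde to retinoic acid. Retinoic acid binds nuclear receptors of the RAR family, which pair with RXR receptors on direct repeats of a short half-site in DNA and regulate nearby genes, while CYP26 enzymes degrade it. In the postnatal lung, lipid-storing interstitial fibroblasts hold retinyl esters, and retinoic acid is known for its part in the septation that divides saccules into alveoli.

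None of the 9 genes passed the test. Values below are log2 intensities after quantile normalization, with a floor at 3.98 (an intensity of 15.8), and a change is smoke minus control. Of the 9 genes, 6 had a probe set past a filter that kept the brightest 60% of probe sets, and 0 of these 6 passed (limma, Benjamini-Hochberg adjusted p under 0.05 over 27022 probe sets). At an unadjusted p under 0.05 the number was also 0 of 6, and a version of the calling rule in the series' description called 0 of 6 and 4.92% of all genes. That version asked for at least 16 of the 24 pairs of a smoke and a control array in 1 direction, an unadjusted limma p under 0.05, and a fold of at least 1.5 both before and after its standard error was taken off. Over all 13382 genes tested, 0.725% passed (0.0224% higher and 0.702% lower after smoke) and 10.2% had an unadjusted p under 0.05. The other 3 genes, Stra6, Crabp2 and Rara, lay under the filter and were read from a fit without it, in which 0.346% of probe sets passed and 8.98% had an unadjusted p under 0.05. The arrays limit the precision by their number: the 95% interval of the change was narrowest for Aldh1a1 (-0.63 to 0.10) and widest for Crabp1 (-0.69 to 2.24) among the 6, so no miss shows that a gene stayed level. As a check on exposure, Cyp1b1, a cytochrome P450 induced by components of smoke, ran from 6.84 to 8.29 in controls and from 8.81 to 10.53 after smoke. The lung markers Sftpc, of alveolar type 2 cells, and Ager, of alveolar type 1 cells, were at 14.28 or more and 14.23 or more on every array.

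**Figure D1:**
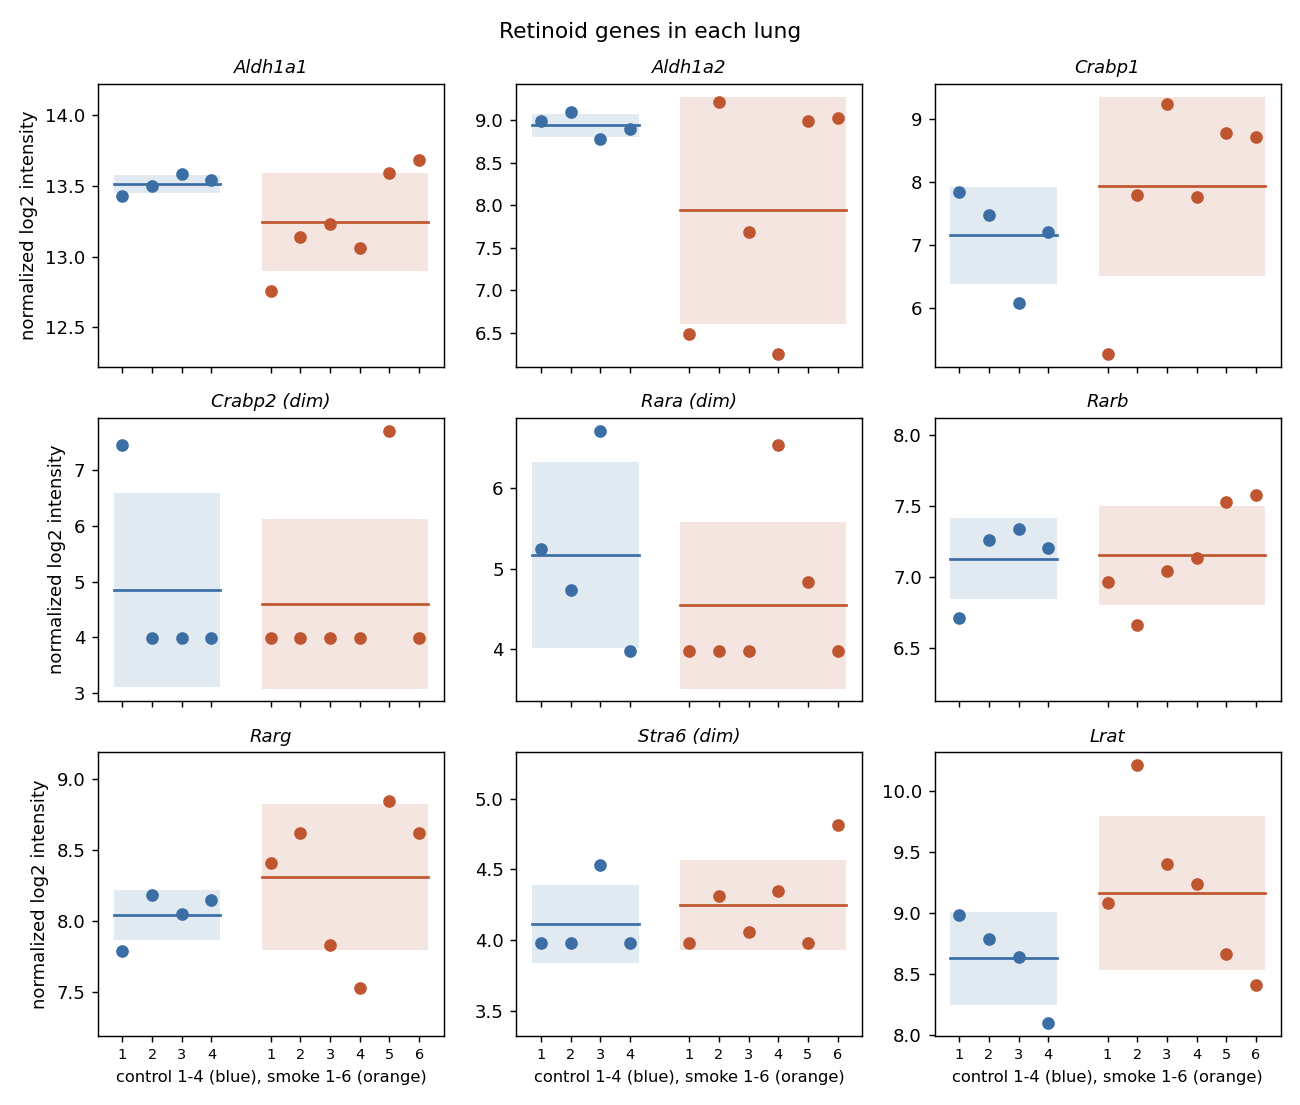
Normalized log2 intensity of the probe set that stands for each of the 9 genes (y axis) on each array (x axis), with 4 control arrays in blue and 6 smoke arrays in orange; lines are group means and shaded bands 1 SD, and "dim" marks genes under the filter. The groups overlap for all 9 genes. On this scale smoke arrays spread more widely than controls for Aldh1a1 and Aldh1a2, but for Aldh1a1 the narrow control range depends on quantile normalization.

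Some arrays stood apart from the rest. The ratio of 3' to 5' actin signal, a measure of RNA integrity and labelling, was 31.6 and 29.4 on smoke arrays 1 and 2. It was 3.96 to 10.4 in controls, and lowest on smoke arrays 5 and 6, at 2.18 and 2.98. The same ratio for GAPDH was 4.82 to 5.89 in controls, 4.76 on smoke array 1 and 9.16 on smoke array 2. On smoke arrays 5 and 6 it was 1.40 and 2.13. A high ratio on smoke array 1 was thus seen for actin and not for GAPDH. Xist, a transcript of the inactive X chromosome, was at 13.96 to 14.09 on control arrays 2 and 4 and smoke arrays 5 and 6, and at 8.25 to 9.38 on the rest. Smoke arrays 5 and 6 therefore differ from the other smoke arrays in Xist level and in these ratios, which cannot be told apart here. Any fit without them sets smoke arrays that are all low in Xist against controls of both Xist levels.

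Uptake and storage came first. Stra6, the membrane receptor that takes up retinol from its carrier in blood, was at or near the floor on every array. Its values were 3.98, 3.98, 4.53 and 3.98 in controls, and after smoke the lowest was 3.98, the median 4.19 and the highest 4.81. The change of 0.13 ± 0.19 (SE; limma without the filter, adjusted p = 0.850; exact two-sided permutation p = 0.595) describes a probe set with 5 of 10 arrays at the floor, and its interval of -0.28 to 0.55 covers only values near that floor.

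Lrat, lecithin retinol acyltransferase, makes the retinyl esters in which vitamin A is stored. The brighter of its probe sets, annotated from an expressed sequence tag, was at 8.98, 8.79, 8.64 and 8.10 in controls, and after smoke the lowest was 8.41, the median 9.16 and the highest 10.21. Smoke arrays 1 to 4 lay above every control (with arrays median centred only 2 and 3 did), smoke arrays 5 and 6 lay within the control range, and smoke array 2 was highest. The change of 0.54 ± 0.33 (SE) did not pass (limma, adjusted p = 0.594; 95% interval -0.18 to 1.25). It was 0.30 once smoke arrays 1 and 2, where the actin ratio was high, were left out.

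The dimmer Lrat probe set, annotated from the RefSeq mRNA, ran the other way. It was at 5.63, 5.62, 5.97 and 5.69 in controls, and after smoke the lowest was 3.98, the median 4.95 and the highest 5.86. Smoke arrays 1 and 4 lay at the floor and smoke array 2 lay within the control range. The change was -0.86 ± 0.38 (SE; limma without the filter, adjusted p = 0.553, unadjusted p = 0.0486; exact two-sided permutation p = 0.0667; 4 against 6 arrays can give no p below 0.00476). The direction for Lrat thus depends on the probe set, and none is given for the gene.

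**Figure D2:**
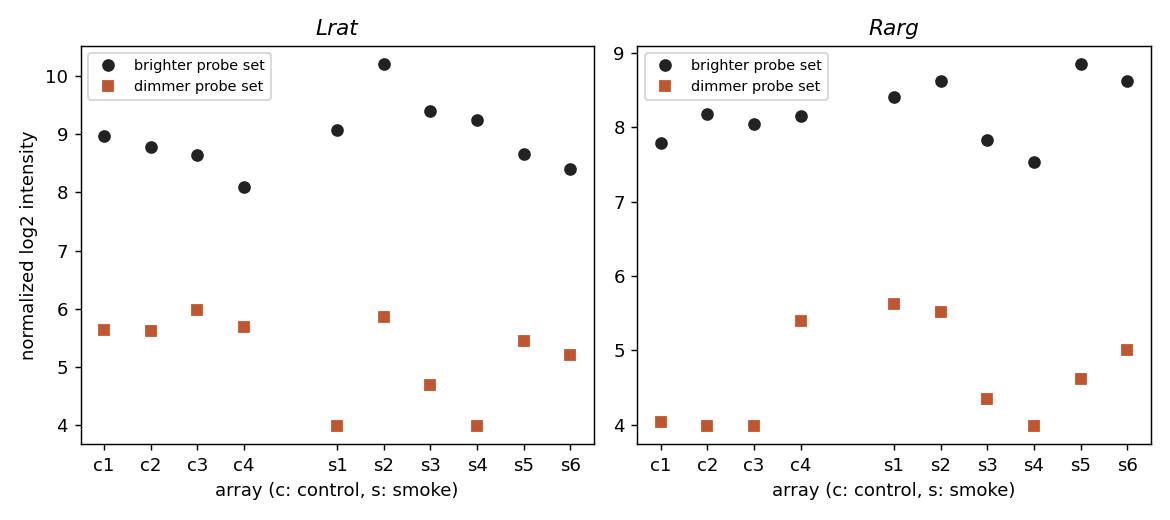
Normalized log2 intensity (y axis) on each control (c) and smoke (s) array (x axis) for the brighter and dimmer probe sets of Lrat (left) and Rarg (right); levels of different probe sets are not comparable. For Lrat the brighter set has a change of 0.54 and the dimmer one -0.86, while both Rarg sets have changes above 0, at 0.27 and 0.50.

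The retinaldehyde dehydrogenases, which make retinoic acid, were followed array by array. Aldh1a1 was at 13.43, 13.50, 13.58 and 13.54 in controls and at 12.76, 13.14, 13.23, 13.06, 13.59 and 13.68 on smoke arrays 1 to 6. On this scale smoke arrays 1 to 4 lay below every control and smoke arrays 5 and 6 above every control, but which side an array took depended on the scaling. Without quantile normalization, as deposited, smoke array 2 was above every control and smoke arrays 5 and 6, at 13.21 and 13.31, were below every control (lowest 13.32). With arrays median centred, smoke array 2 was again above every control, smoke array 5 was below and smoke array 6 lay within the range. Smoke arrays 1, 3 and 4 were below every control under all 3 scalings. The control mean was 13.51 ± 0.06 (SD, n = 4) and the smoke mean 13.24 ± 0.34 (SD, n = 6), and the change of -0.27 ± 0.17 (SE) did not pass (limma, adjusted p = 0.601; 95% interval -0.63 to 0.10). Without smoke arrays 5 and 6 the change was -0.46 and passed. This held with and without the array number as a block (limma, adjusted p = 0.0416 and 0.0476). However, over all tested genes 788 and 742 then passed, against 97 with all arrays. The groups in these fits also differ in their share of low-Xist arrays. The call was lost on the same arrays as deposited (-0.28; limma, adjusted p = 0.351) and median centred (-0.48; limma, adjusted p = 0.321).

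Split by Xist level, a division chosen after seeing the data, the Aldh1a1 change was -0.46 on low-Xist arrays (4 smoke, 2 control; limma, adjusted p = 0.341) and 0.12 on high-Xist arrays (2 smoke, 2 control; limma, adjusted p = 0.590). The difference between these changes was 0.57 ± 0.21 (SE) and did not pass (limma interaction term, adjusted p = 0.293, unadjusted p = 0.0217). These values are after quantile normalization; as deposited, smoke arrays 5 and 6 lay below both high-Xist controls. Among all genes, 1 passed for this term and 2230 of 13382 had an unadjusted p under 0.05. Without smoke arrays 1 and 2 the change was -0.12, and with arrays weighted by quality it was -0.09.

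Aldh1a2, the main retinaldehyde dehydrogenase of the embryo and of mesothelium, was at 8.99, 9.09, 8.78 and 8.89 in controls and at 6.49, 9.21, 7.69, 6.25, 8.99 and 9.02 on smoke arrays 1 to 6. Smoke arrays 1, 3 and 4 lay below every control, smoke array 2 lay above every control, and smoke arrays 5 and 6 lay within the control range. The change of -1.0 ± 0.58 (SE) did not pass (limma, adjusted p = 0.582; 95% interval -2.27 to 0.28), and it ran from -1.25 without smoke array 2 to -0.66 without smoke array 4. Its SD was 0.13 in controls and 1.33 after smoke, a ratio of 10.3, and 1.14% of all genes tested had a ratio as large, where the median was 1.80. For Aldh1a1 the ratio was 5.43, reached by 6.25% of genes. These ratios are after quantile normalization, and for Aldh1a1 the narrow control range depended on it. As deposited, Aldh1a1 controls ran from 13.32 to 13.59 and smoke arrays from 12.89 to 13.60, and no ratio was taken on those values. The actin ratios were 31.6, 9.26 and 10.3 on smoke arrays 1, 3 and 4, where Aldh1a2 was low, and 29.4 on smoke array 2, and with the actin ratio in the fit the change was -0.92. The same 3 arrays were below every control under the other scalings, under which smoke arrays 5 and 6 lay above every control.

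Because mesothelium is a known site of Aldh1a2, its markers were read beside it. Mesothelin (Msln) was at 10.59 to 10.91 in controls and at 8.35, 10.28, 10.32, 9.96, 10.41 and 10.51 on smoke arrays 1 to 6. Lrrn4, another mesothelial gene, was at 7.31 to 7.89 in controls and at 5.95, 7.35, 7.17, 5.38, 7.71 and 8.01 after smoke. Upk3b was at 10.14 to 10.63 in controls and at 8.40 on smoke array 1. Of 8 mesothelial markers tested 0 passed, 6 had a negative change and 2 a positive one, and the summed intensity of all 10 measured ran from 8059 to 9157 in controls and from 6964 to 8855 after smoke, with no marker at the floor on every array. The sums on smoke arrays 1, 3 and 4, where Aldh1a2 was low, were 7388, 6964 and 7154, the lowest of the series, and smoke array 2 had 8855. Other markers did not share the pattern. Upk1b and Cldn15 were at 11.49 and 9.15 on smoke array 1, above every control. Krt19 lay within the control range on smoke arrays 1, 3 and 4 (8.86, 9.49 and 9.50, controls 8.62 to 9.81). Gpm6a lay within it on smoke arrays 1 and 4 and Rspo1 on smoke array 4. Msln lay below every control on all smoke arrays, including those where Aldh1a2 did not. The part of mesothelial cell content in the Aldh1a2 values was not tested, and in whole lung fewer cells of a type and less RNA per cell cannot be told apart.

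**Figure D3:**
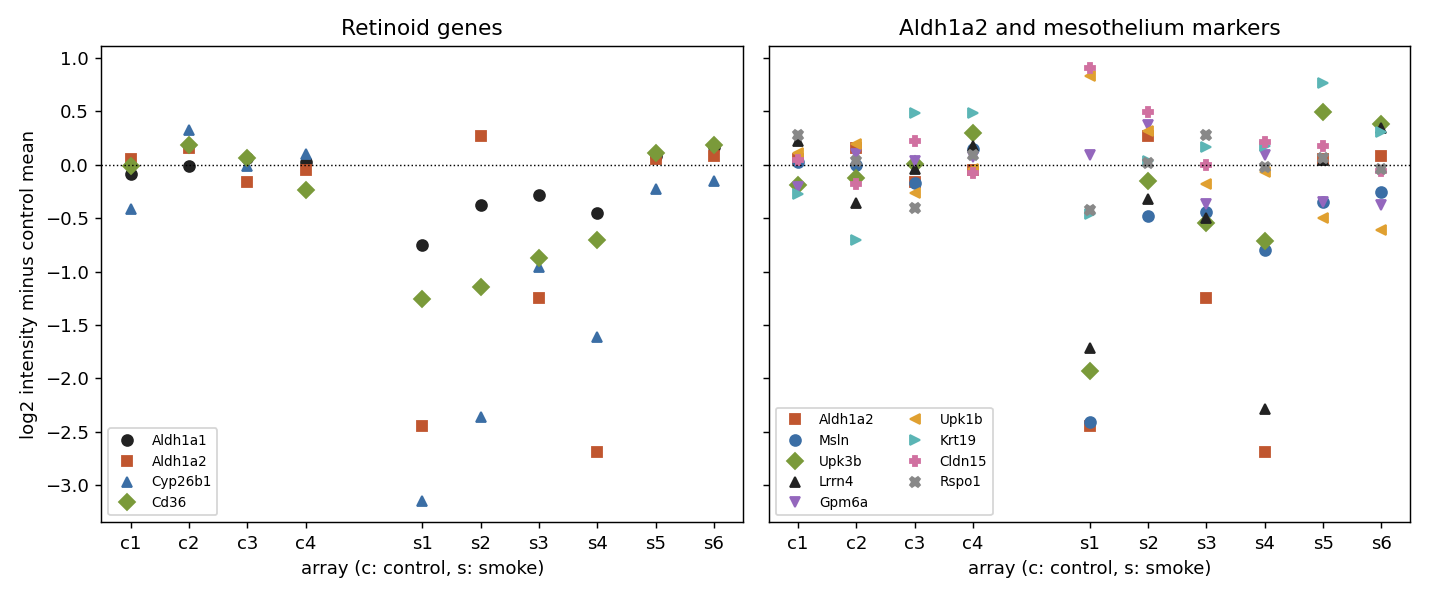
Log2 intensity minus the control mean (y axis) on each control (c) and smoke (s) array (x axis), for Aldh1a1, Aldh1a2, Cyp26b1 and Cd36 (left) and for Aldh1a2 with the 8 tested mesothelium markers (right). Cyp26b1 and Cd36 are below every control on smoke arrays 1 to 4 under all 3 scalings, and Aldh1a2 on smoke arrays 1, 3 and 4; the pattern of Aldh1a1 shown, low on smoke arrays 1 to 4 and above the controls on 5 and 6, holds after quantile normalization and not on the values as deposited. The genes on the left were picked for their pattern.

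The cellular retinoic acid binding proteins carry retinoic acid in the cytoplasm, CRABP2 to the receptors and CRABP1 to the enzymes that degrade it. Crabp1 was at 7.85, 7.48, 6.07 and 7.21 in controls and at 5.26, 7.80, 9.25, 7.77, 8.78 and 8.72 on smoke arrays 1 to 6. Smoke arrays 3, 5 and 6 lay above every control, smoke array 1 lay below every control, and arrays 2 and 4 lay within the control range. The means were 7.15 ± 0.77 (SD, n = 4) and 7.93 ± 1.43 (SD, n = 6), and the change of 0.78 ± 0.67 (SE) did not pass (limma, adjusted p = 0.719; 95% interval -0.69 to 2.24). Of the 24 pairs of a smoke and a control array, smoke was higher in 18. The change was 1.31 without smoke array 1, 1.48 without smoke arrays 1 and 2, 0.42 without control array 3 and 0.37 without smoke arrays 5 and 6. On the high-Xist arrays alone it was 1.40 and passed (limma, adjusted p = 0.0455, 2 against 2 arrays), where 154 of all genes passed.

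Crabp2 was off the floor on 1 array of each group. It was at 7.46 on control array 1 and at 7.71 on smoke array 5, and at the floor of 3.98 on the other 8. The change of -0.25 ± 0.94 (SE; limma without the filter, adjusted p = 0.960) turned positive, to 0.62, without control array 1. A level that changes from the floor to well above it between animals of 1 group gives no direction for the gene.

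The receptors were examined last among the 9. Rara, which is broadly expressed in most tissues, was at 5.25, 4.74, 6.71 and 3.98 in controls and at the floor on 4 of 6 smoke arrays, with 6.54 on smoke array 4 and 4.83 on smoke array 5. The change of -0.62 ± 0.64 (SE) did not pass (limma without the filter, adjusted p = 0.801; exact two-sided permutation p = 0.405), and it was -0.11 without control array 3. With 5 of 10 arrays at the floor, this probe set measures Rara poorly, and the level of the mRNA itself is not shown to be low.

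Rarb is known for a retinoic acid response element in its own promoter. That promoter is shown here with that of Cyp26a1, the degrading enzyme induced by retinoic acid, since both genes were measured and the search found the element in no other of the 9 genes or of the wider lists with a window. Each line gives the 250 bases before a transcription start site of RefSeq on GRCm38.p6, 5′ to 3′ on the gene's strand, at chr14:16575477-16575726 (minus strand) for Rarb and at chr19:37697558-37697807 (plus strand) for Cyp26a1. Capitals mark the element called DR5, a direct repeat of 6-base half-sites separated by 5 bases.
Rarb: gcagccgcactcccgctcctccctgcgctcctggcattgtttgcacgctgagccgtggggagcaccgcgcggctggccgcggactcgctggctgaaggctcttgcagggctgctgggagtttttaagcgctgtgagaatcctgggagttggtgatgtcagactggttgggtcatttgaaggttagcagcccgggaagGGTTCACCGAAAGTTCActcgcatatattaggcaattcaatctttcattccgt
Cyp26a1: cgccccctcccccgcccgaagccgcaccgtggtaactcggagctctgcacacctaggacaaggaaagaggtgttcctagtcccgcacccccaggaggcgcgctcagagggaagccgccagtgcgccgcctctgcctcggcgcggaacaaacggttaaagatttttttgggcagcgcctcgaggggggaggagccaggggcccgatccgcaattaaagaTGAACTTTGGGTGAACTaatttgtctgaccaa
A half-site was read as AGGTCA or as any of 3 variants of it, namely AGTTCA with a change in the middle, GGGTCA with a change at the start, or GGTTCA with both. Any half-site could pair with any other, both strands were searched, and DR5 and DR2 matches were counted separately. The element lies on the gene's strand in Rarb, where its last base is 37 bases before the start site, and on the opposite strand in Cyp26a1, where it ends 16 bases before it. It was found in 0.0974% of all 32851 windows of 300 bases around start sites (32 windows, of 31 genes). Of the 9 genes 8 had a window, 16 windows in all, and 1 window held it. Of 78 genes of the wider lists with a window, 1 held it. The related repeat with 2 bases between half-sites, DR2, was in 0.268% of all windows and in 0 of the windows of either set. A match is only a run of letters, and a window without one says nothing of regulation from elsewhere.

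Rarb, the receptor whose transcription retinoic acid itself induces, was at 6.71, 7.26, 7.34 and 7.20 in controls and after smoke the lowest was 6.66, the median 7.09 and the highest 7.58. Smoke arrays 5 and 6 lay above every control, under the other scalings too, and smoke array 2 lay below every control, where it was within the range under both other scalings. The change of 0.02 ± 0.26 (SE) did not pass (limma, adjusted p = 0.984), with the smallest size among the 6 tested, a 95% interval of -0.54 to 0.59, and a sign that turned when single arrays were left out. Cyp26a1, which carries the same kind of element, was at 6.18 to 8.38 in controls and 6.28 to 8.72 after smoke, with a change of 0.47 ± 0.49 (SE; limma, adjusted p = 0.770). The 95% interval for Cyp26a1 was -0.60 to 1.55, so both intervals span 0.

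Rarg, a receptor prominent in skin and skeletal tissue, was at 7.79, 8.18, 8.05 and 8.15 in controls and after smoke the lowest was 7.53, the median 8.51 and the highest 8.85. Smoke arrays 1, 2, 5 and 6 lay above every control and smoke array 4 lay below every control. The change of 0.27 ± 0.27 (SE) did not pass (limma, adjusted p = 0.766; 95% interval -0.33 to 0.87). Its dimmer probe set, with 3 of 10 arrays at the floor, had a change of 0.50 ± 0.40 (SE; limma without the filter, adjusted p = 0.740).

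**Figure D4:**
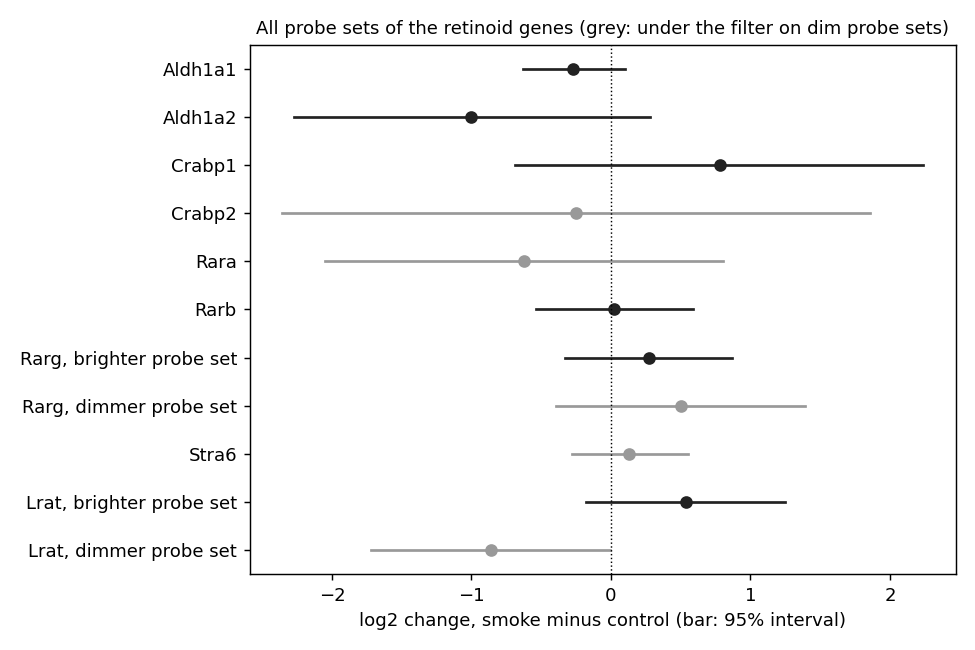
Log2 change, smoke minus control (x axis; points, with bars for the 95% interval from limma), for all 11 probe sets of the 9 genes (y axis); grey marks probe sets under the filter on dim signals, from the fit without it. The 10 intervals other than that of the dimmer Lrat probe set, which ends at -0.01, include 0.

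Counted by array, the 6 tested genes left the control range often, as did most genes. On smoke arrays 1 to 4, between 4 and 5 of the 6 lay outside it, on both sides. On smoke arrays 5 and 6 the same 4 genes, Aldh1a1, Rarg, Crabp1 and Rarb, lay above every control and 0 lay below; as deposited, Aldh1a1 lay below every control on both arrays, and the other 3 genes and Aldh1a2 above. Over all genes 22.3% to 33.1% lay below and 26.6% to 44.4% above the range of the 4 controls on a given smoke array. By contrast, 0 of the 6 had groups that did not overlap, against 4.09% of all genes. The groups also overlapped in all 5 dim probe sets, where without the filter 3.18% of probe sets had groups apart.

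Genes whose pattern over the 10 arrays was most like that of each tested member were named by Pearson's r, as a description without a test. For Aldh1a2 these were Arfgap3, St3gal1 and Hfe (r = 0.959, 0.957 and 0.956), and for Crabp1 they were Tgfb3, Cul7 and Flna (r = 0.964, 0.954 and 0.942). For Lrat they were Col7a1, Hspa9 and Neil3 (r = 0.967, 0.962 and 0.945), for Rarg Etfrf1, Pigs and Utp6 (r = 0.935, 0.926 and 0.911), and for Rarb Spidr, Sfmbt1 and Rad1 (r = 0.944, 0.940 and 0.940). For Aldh1a1 they were Dph3, Tmem168 and Trappc8 (r = 0.981, 0.981 and 0.978), which dropped to 0.509, 0.408 and 0.587 on the values as deposited. In the other 5 sets r stayed at 0.790 or more on those values. Arrays share depth of signal and RNA integrity, and with 13382 genes high values of r arise from the choice of the highest.

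The wider retinoid pathway was read from 5 lists holding 109 genes, of which 77 were tested. In limma 0 of the 77 passed, while 13 had an unadjusted p under 0.05, 9 higher and 4 lower, against 5.75% and 4.47% of all genes. The median change was 0.10, beside 0.06 over all genes, and 51 of the 77 changes were positive. In 5 of the 77 genes the groups did not overlap, against 4.09% of all genes: Aox1, Hoxb6 and Rai1 were higher after smoke and Lpl and Ncoa7 lower.

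**Figure D5:**
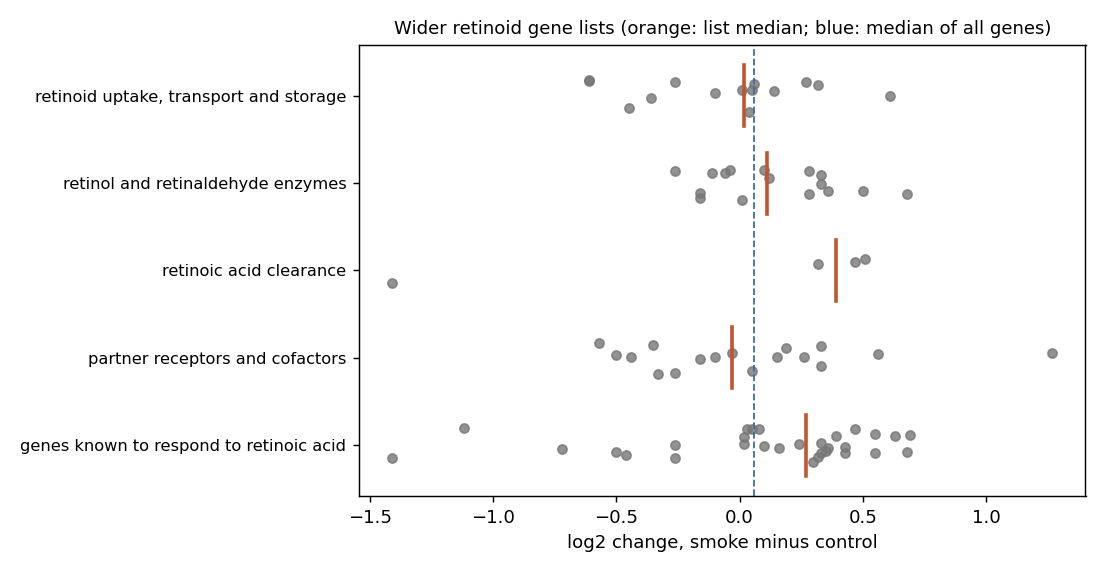
Log2 change, smoke minus control (x axis), of each tested gene (grey points, spread vertically for clarity) in 5 lists of retinoid genes (y axis), with the median of each list in orange and that of all 13382 genes, 0.06, as a dashed blue line. Cyp26b1, at -1.41, and Ppard, at 1.27, lie farthest out, and the list of retinoic acid responders has a median of 0.27. Ppard passed the filter only through its smoke values.

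Among 14 tested genes of uptake, transport and storage 0 passed, and 8 changes were positive and 6 negative (median 0.02, and -0.04 with arrays median centred). Lpl, the lipase that also frees retinol from lipoproteins, was at 13.20 to 13.53 in controls and at 12.37 to 13.20 after smoke, with a change of -0.61 ± 0.17 (SE; limma, adjusted p = 0.227). It was -0.81 without smoke arrays 5 and 6, where it passed (limma, adjusted p = 0.00552), but not on those arrays as deposited (-0.69; limma, adjusted p = 0.0619) or median centred (-0.89; limma, adjusted p = 0.0683). Cd36, a scavenger receptor for lipids, was at 13.05 to 13.47 in controls and at 12.03 to 12.58 on smoke arrays 1 to 4, and smoke arrays 5 and 6 were at 13.40 and 13.47. Its change was -0.61 ± 0.28 (SE; limma, adjusted p = 0.499). It was -1.0 without smoke arrays 5 and 6, where it passed (limma, adjusted p = 0.00554), as did 742 of all genes. Without smoke arrays 1 and 2 the change was -0.32, and with arrays weighted by quality -0.26. Neither passed (limma, adjusted p = 0.681 and 0.66). Alveolar macrophages also express Cd36, and all 7 tested markers of these cells had a negative change (median -0.67). Among these markers 0 passed and 4 had an unadjusted limma p under 0.05, where 4.47% of all genes were lower at that p. Their summed intensity was 15032 to 19535 in controls and 9151, 16206, 9756, 13439, 14657 and 15597 on smoke arrays 1 to 6, with no marker at the floor on every array. Of these, Mrc1 was at 10.42 to 11.08 in controls, at 9.49 to 10.31 on smoke arrays 1 to 4 and at 10.88 and 10.72 on smoke arrays 5 and 6, and Marco was at 8.12 to 8.53, 3.98 to 7.22, and 8.25 and 8.46. Krt79 also lay below every control on smoke arrays 1 to 4 only. Chil3, Fabp1, Siglecf and Cd68 lay within the control range on smoke array 2, and Chil3 and Fabp1 below every control on smoke array 5. Among 8 tested endothelial markers 6 changes were negative and 2 positive (median -0.13). Tek was at 11.91 to 12.33 in controls, 10.94 to 11.78 on smoke arrays 1 to 4, and 12.28 and 12.17 on 5 and 6. Emcn also lay below every control on smoke arrays 1 to 4 and above every control on 5 and 6. Eng lay above every control on smoke arrays 1 to 4. Pecam1, Cdh5, Kdr, Ramp2 and Cldn5 were not below every control on all of smoke arrays 1 to 4. The part of macrophage content, or of any other cell type, in the Cd36 values was not tested. Next by p was Dgat1, an acyltransferase that can make retinyl ester, at 0.32 ± 0.25 with its other probe set at -0.30. The lipase Pnpla2 followed at -0.36 ± 0.32 and the carboxylesterase Ces1d at -0.10 ± 0.11. Other probe sets of Ces1d were at -0.68 and -0.20.

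Among 16 tested enzymes of retinol and retinaldehyde 0 passed, and 10 changes were positive and 6 negative (median 0.11). Rdh10, the dehydrogenase that makes retinaldehyde from retinol, was at 8.14, 8.52, 8.91 and 9.30 in controls and after smoke the lowest was 9.10, the median 9.31 and the highest 9.87. Smoke was higher in 21 of 24 pairs of arrays, and the change of 0.68 ± 0.25 (SE) did not pass (limma, adjusted p = 0.397). Its other tested probe set was at 0.30. Dhrs3, which reduces retinaldehyde back to retinol and is induced by retinoic acid, was at 10.37 to 10.54 in controls and 9.87 to 10.39 after smoke, with a change of -0.26 ± 0.15 (SE; limma, adjusted p = 0.578) and smoke higher in 2 of 24 pairs. Aox1, an aldehyde oxidase, was at 9.29 to 9.57 and 9.62 to 10.65, with a change of 0.50 ± 0.22 (SE; limma, adjusted p = 0.489). The alcohol dehydrogenase Adh1 was at 0.36 ± 0.18, and Retsat, a retinol saturase, at 0.33 ± 0.19, while its other probe set was at -0.01.

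Of 6 genes of retinoic acid clearance 4 were tested and 0 passed. Cyp26b1, a retinoic acid hydroxylase, was at 8.71, 9.45, 9.11 and 9.23 in controls and at 5.98, 6.76, 8.17, 7.51, 8.90 and 8.97 on smoke arrays 1 to 6. Smoke arrays 1 to 4 lay below every control and smoke arrays 5 and 6 within the control range. The change of -1.41 ± 0.54 (SE) did not pass (limma, adjusted p = 0.408; 95% interval -2.57 to -0.24). It was -2.02 without smoke arrays 5 and 6 and -1.26 with the actin ratio in the fit. It passed in both (limma, adjusted p = 0.0284 and 0.0312). Over all genes 742 and 371 then passed, against 97 with all arrays and no covariate. Without smoke arrays 1 and 2 the change was -0.73, and with arrays weighted by quality -0.71. Neither passed (limma, adjusted p = 0.435 and 0.396). On the low-Xist arrays the change was -1.80 and on the high-Xist arrays -0.40, and the difference of 1.40 ± 0.77 (SE) did not pass (limma interaction term, adjusted p = 0.413). The cytochrome P450 Cyp2s1 was at 0.51 ± 0.22 and Ugt2b1, a glucuronosyltransferase, at 0.32 ± 0.33.

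Among 17 tested partner receptors and cofactors 0 passed, and 8 changes were positive and 9 negative (median -0.03). Ppard, a nuclear receptor that can also bind retinoic acid, was at 6.10, 6.99, 5.06 and 5.27 in controls and after smoke between 6.87 and 7.26, higher in 23 of 24 pairs. Its change of 1.27 ± 0.37 (SE) did not pass (limma, adjusted p = 0.243). The control mean of 5.85 lay under the filter at 6.60, and the smoke mean was 7.13. Ppard thus passed the filter only through its smoke values, a choice that favours a rise. Nr2f2, an orphan nuclear receptor, had a change of 0.56 ± 0.21 in its brightest probe set, and -1.0 and -1.28 in other probe sets, so that no direction can be given. Ncoa2, a coactivator of nuclear receptors, was at -0.44 ± 0.17 with other probe sets at 0.47 and -0.62. Ep300, an acetyltransferase, was at -0.35 ± 0.18 and Tbl1xr1, a subunit of a corepressor complex, at 0.33 ± 0.18 with its other probe set at -0.21. Rxra and Rxrb, the common partners of the RAR receptors, were at 0.15 ± 0.18 and 0.05 ± 0.25.

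Among 30 tested genes known from elsewhere to respond to retinoic acid 0 passed, and 23 changes were positive and 7 negative. Their median was 0.27, beside 0.06 for all genes, of which 56.9% had a positive change. The median was 0.18 with arrays median centred (18 of 30 positive), 0.10 without smoke arrays 1 and 2 (20 of 30 positive) and 0.11 with arrays weighted by quality. Over all genes the medians in these settings were 0.01, 0.03 and 0.03, with 50.7%, 53.8% and 55% of changes positive. Hoxb6, a homeobox gene, was at 7.42 to 7.55 in controls and 7.94 to 8.36 after smoke, with a change of 0.63 ± 0.18 (SE; limma, adjusted p = 0.230). Rai1, named as retinoic acid induced, was at 8.92 to 9.13 and 9.32 to 9.62, with a change of 0.39 ± 0.16 (SE; limma, adjusted p = 0.439). Elastin (Eln), the core protein of the elastic fibres of alveolar septa, was at 11.13 to 11.85 in controls and 11.53 to 12.59 after smoke, with a change of 0.55 ± 0.22 (SE; limma, adjusted p = 0.443). It passed with the actin ratio as a covariate, at 0.60 (limma, adjusted p = 0.0394), where 371 of all genes passed. Ncoa7, a coactivator of nuclear receptors, was at 9.68 to 10.02 in controls and at 7.13 to 9.58 after smoke, with a change of -1.12 ± 0.41 (SE; limma, adjusted p = 0.396). With smoke arrays 5 and 6 left out it was -1.56 and passed, in a fit where 742 of all genes did, against 97 with all arrays.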

How the data were processed

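Lung RNA from 10 mice was hybridised to 1 array each, per the labels' protocols. The deposited values are linear intensities, 1 for each probe set; how the probes were summarised is not given in the sources used here, and no detection calls were used. On every array the mean without the lowest and highest 2% was near 500. Here log2 was taken, arrays were quantile normalized, values under the table's 10th percentile were set to it, and the upper 60% of 45037 probe sets by mean were tested, 27022 in all, by lmFit and trended eBayes (limma 3.58.1, R 4.3.3). A gene was its brightest tested probe set with a single symbol in the platform annotation. Exact permutation tests were two-sided. Members, lists and settings were chosen with earlier results of these data known. By rule, the text names all 9 genes, the 5 smallest p of each list where none passed, and 3 look-alikes per tested gene; Rxra, Rxrb and single markers were added after their values were seen. Alternatives covered normalization, filter, floor, variance model, weights, covariates, numbering and omitted arrays. The fit was run on simulated independent normal values with the same SD in both groups. That leaves out the wider spread of the smoke arrays and their differences in quality. Promoters came from RefSeq (GRCm38.p6), where Crabp2 had no entry; plots used matplotlib 3.10.9.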

Additional observations from a re-analysis of the deposited data

Results flagged for a closer look

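A value far from the rest of its group was found in 6 of 68 groups of arrays checked over the 11 probe sets and the named genes of the wider lists, where chance gives about 1 in 20 for values off the floor. The check used values after the floor was set. Where all other arrays of a group lie at the floor, any value above it is flagged, so that rate does not hold there. The smoke group of Crabp1 held a low value of 5.26 on smoke array 1, the next being 7.77. Crabp2 held a high value in each group, 7.46 on control array 1 and 7.71 on smoke array 5, with all other arrays at the floor. Rara was at 6.54 on smoke array 4, the next smoke value being 4.83. The dimmer probe set of Rarg was at 5.39 on control array 4, the next control being 4.03. Stra6 was at 4.53 on control array 3 with the other controls at the floor. Of the 6 values 5 belong to probe sets under the filter on dim signals.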

How the results depend on the processing

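The number of the 9 genes that passed was 0 in every setting run except 3. It was 1 without smoke arrays 5 and 6, both with the array number as a replicate block and without it (Aldh1a1 in both), and 1 on high-Xist arrays (Crabp1). Leaving out any single array gave 0 to 0. For the same arrays as deposited or median centred it was 0, a pair of settings chosen after seeing the data. Among the wider lists 6 genes passed with the block, 4 without smoke arrays 5 and 6 and no block, 3 on those arrays as deposited and 3 median centred (Cd36, Cyp26b1 and Ncoa7 in both), and 3 with the actin ratio as a covariate (Cyp26b1, Eln and Lpl); in all other settings, single omissions included, 0 did. Over all genes the 97 that passed became 183 with array weights, 788 with the replicate block, 742 for the same arrays without it (418 higher, 324 lower), 640 on those arrays as deposited (330 higher, 310 lower) and 339 median centred (68 higher, 271 lower), 371 with the actin ratio as a covariate and 154 on high-Xist arrays, and 59 to 104 over single omissions. On low-Xist arrays (4 smoke, 2 control) 69 passed. The cause was not tested. The labels do not say that array numbers shared by the groups mark pairs. Correlations of same-numbered deviations from the group means were -0.02, 0.16, -0.07 and -0.08. Arrays of different numbers were not set beside them, so these values do not decide the question.

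Several signs turned. Rarb was at -0.18 without smoke arrays 5 and 6, with and without the block, at -0.08 on low-Xist arrays, and from -0.11 to 0.12 over single omissions. Crabp2 was at 0.06 without smoke arrays 1 and 2, at 1.86 on high-Xist arrays, and from -0.87 to 0.62 over single omissions. Stra6 was at 0 with the floor at the 25th percentile, where all arrays lay at the floor, and at -0.08 on low-Xist arrays. Ces1d was at 0.04 on the values as deposited and, without smoke arrays 5 and 6, at 0.33 as deposited and 0.13 median centred. On the latter arrays, median centred, Rarb was at -0.15, Rarg at -0.03 and Tbl1xr1 at -0.03. On high-Xist arrays the changes were 0.12 for Aldh1a1, 0.02 for Aldh1a2, 0.04 for Rara, 0.18 for Cd36, -0.20 for Dgat1, 0.29 for Pnpla2, -0.28 for Cyp26a1 and -0.42 for Ugt2b1. Of the values of named genes under an alternative, 807 kept both sign and call, 25 changed sign and 20 gained a call. Stra6, Crabp2, Rara and the dimmer Rarg probe set had 3 or more arrays at the floor, which limits the fall they could show.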

Other observations

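Markers of the lipid-storing interstitial fibroblast, the lung cell that holds retinyl ester, were measured beside the retinoid genes. Of 12 listed markers, 10 were tested and 0 passed (limma), with 6 positive and 4 negative changes and a median of 0.10. Lpl and Plin2 are also in the uptake list, Pparg is among the partner receptors and Fgf10 among the retinoic acid responders. Wnt2, a secreted signal of lung mesenchyme chosen here after its values were seen, was at 8.80, 8.60, 8.65 and 8.95 in controls and at 9.98, 10.15, 9.86, 9.74, 9.36 and 9.29 on smoke arrays 1 to 6, so that the groups did not overlap, and its change was 0.98 ± 0.21 (SE; limma, adjusted p = 0.0824). Tcf21, a transcription factor of these fibroblasts, had a change of 0.52 ± 0.22 (SE; limma, adjusted p = 0.456). Npnt (-0.51 ± 0.34), Limch1 (-0.24 ± 0.19) and Pdgfra (-0.22 ± 0.34) had negative changes (SE; limma, adjusted p = 0.631, 0.682 and 0.846). Plin2, which coats lipid droplets, was at 12.25 to 12.59 in controls and 12.21 to 12.74 after smoke, with a change of 0.05 ± 0.14 (SE; limma, adjusted p = 0.909). The summed intensity of the 12 markers ran from 68263 to 75676 in controls and from 56451, on smoke array 1, to 82849 after smoke.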
